A study of Oryza sativa with 8 samples.

Results

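Roots of a cold-tolerant indica rice line were compared at 10 °C and at 28 °C, and the cold response was read over all rice loci that carry a p-value in the authors' deposited table for that pair of groups. These were 35835 of the 42189 IDs listed, and 26199 of them had an adjusted p-value. It is an IRGA breeding line, and its plants grew in nutrient solution at 28 °C under a light of 150 µmol per square metre and second, with 16 h of light and 8 h of dark. At about 30 days, with 3 leaves, they were moved to a chamber at 10 °C, or at 28 °C for the control group, under 100 µmol of light. Each group gave 2 libraries, each from 4 plants. How long the plants were in the cold is stated in different ways, as 24 h in the extraction protocol and as up to 10 days in the treatment protocol and sample titles. No label says at which hour roots were cut. The deposited fit also held a cold-sensitive IRGA line, whose pedigree code shares its first parts with that of the tolerant line, with 2 libraries at each temperature, so its libraries share in the estimates of spread.

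Rice comes from warm climates, and chilling slows the growth of its roots and their uptake of water and minerals. Plant cells answer the cold through transcription factors such as the DREB and NAC families and through the hormone abscisic acid (ABA), whose receptors act on PP2C phosphatases and SnRK2 kinases. Dehydrins and other late embryogenesis abundant (LEA) proteins, sugars and alternative respiration are known parts of the answer to cold and drought in plants.

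Reads recovered from the deposited values summed to 17461015 and 18598727 in libraries A and B at 10 °C. In those at 28 °C the sums were 20976949 and 20718960. These sums count only reads assigned to loci and leave out 7 loci with several solutions, so they are not the sequencing depth. Levels are normalised reads, that is, whole reads per library as recovered from the deposited tables, divided by the size factor of the library. They are given for library A and then library B of a group, where A is the library with the lower size factor, and they are not scaled by gene length. A group without a read at a locus allowed a level of up to 1.22 at 28 °C and 1.66 at 10 °C, which covers counting error only. Over 20125 loci with a mean of at least 20, the median absolute log2 ratio between the libraries of a group was 0.24 at 28 °C and 0.39 at 10 °C. The libraries differed by over 2-fold at 5.89% of these loci at 28 °C and at 17.2% at 10 °C. Nothing beyond the words for biological replicates says how the libraries of a group were separated, so p-values measure the spread between these libraries. The tables pair no ID with a gene name. Loci are therefore given by ID and by the list that general knowledge of rice puts them in, and that membership was not checked against an annotation. In 47 lists, 461 loci were written down. Of these, 459 were in the tables, 430 were tested, 28 fell below the filter on low means and 1 had no reads.

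Close to equal numbers of loci rose and fell in the cold. An adjusted p (Benjamini-Hochberg) below 0.05 in the authors' deposited table was reached by 10485 of 26199 loci tested (40.0%), with 5314 that rose (20.3%) and 5171 that fell (19.7%). A change of at least 2-fold went with 8217 of these calls (31.4% of loci tested), 3798 up and 4419 down. Among calls, falls were the deeper changes, with a median log2 change of -1.94 in the deposited table against 1.40 for rises. These medians mix depth with abundance. Falls prevailed among calls with means of 10 to 100 (1816 against 748), and rises among those of 1000 to 10000 (2015 against 664). The smallest log2 change called was 2.50 in size below a mean of 10 and 0.39 at 1000 to 10000. Whether falls were deeper than rises at equal abundance was not tested. Both libraries at 10 °C lay above both at 28 °C at 34.2% of 26192 loci with recovered reads and below both at 39.0%. Libraries of both temperatures overlapped at only 20 of the loci called. Among the loci that did not pass, 8699 showed no overlap, and with 2 libraries against 2 an exact permutation test of a single locus cannot go below p = 0.333. The median log2 change was -0.08 over all loci tested and 0.41 over those with a mean of at least 1000. Centred on the second value, 3261 loci rose and 7962 fell, so that 29.1% of calls were rises against 50.7% as deposited. Limma, a linear model with a shared estimate of spread, was run on the recovered reads and called 9926 loci, of which 9455 were also called in the deposited table, each in the same direction. Without one library the call count of limma was 5000 (28 °C, A), 4956 (28 °C, B), 6084 (10 °C, A) or 8654 (10 °C, B), and the lone library left is then assumed to vary like the other groups.

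**Figure D1:**
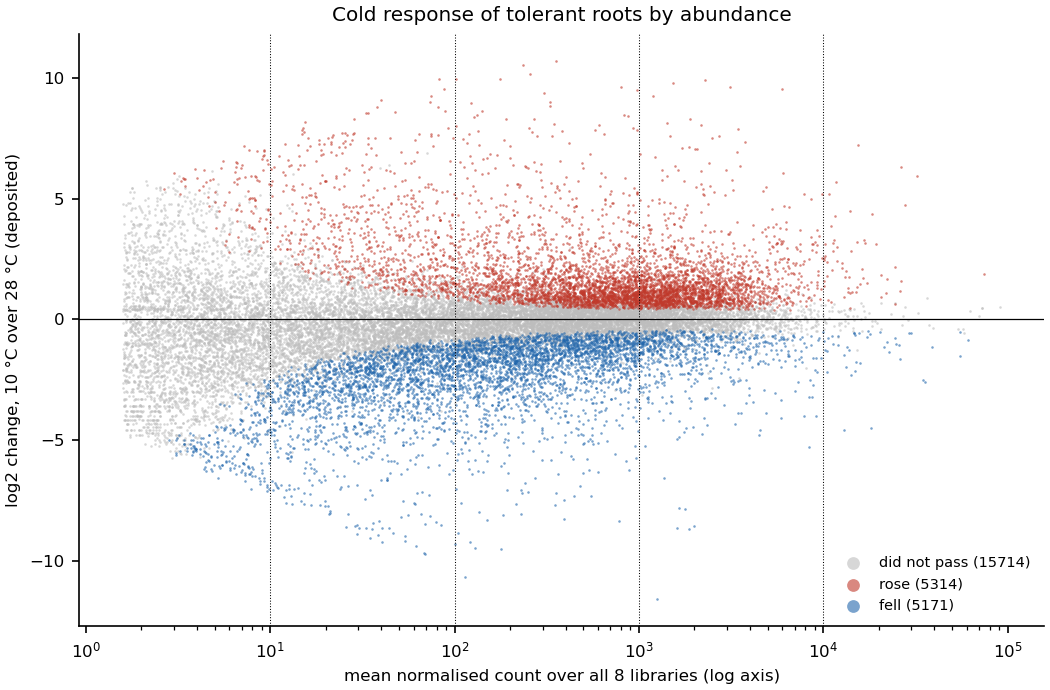
Mean normalised count over all 8 libraries (log axis) against the deposited log2 change of 10 °C over 28 °C for the 26199 loci tested. Each point is a locus, red for the 5314 that rose, blue for the 5171 that fell and grey for the 15714 that did not pass, and dotted lines mark the class borders at 10, 100, 1000 and 10000.

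The direction of the response shifted with abundance. In the class with means of 10 to 100, 748 of 6904 tested loci rose and 1816 fell, while in the class of 1000 to 10000, 2015 of 4775 rose and 664 fell. Rises made up 29.2% of calls in the first and 75.2% in the second of these classes. Between them, in the class of 100 to 1000, 2400 loci rose and 2399 fell of 10088 tested. Among the 166 loci with a mean of at least 10000, 57 rose and 42 fell. Below a mean of 10, 94 rose and 250 fell of 4266 tested, and a further 9636 loci were left out by the filter on low means. The median log2 change in the authors' deposited table went from -0.62 below 10 and -0.56 at 10 to 100 through 0.01 to 0.42 at 1000 to 10000 and 0.22 above.

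Precision changed along the same scale. The median standard error of the log2 change in the authors' deposited table was 1.80 below a mean of 10, 0.71 at 10 to 100, 0.34 at 100 to 1000, 0.26 at 1000 to 10000 and 0.30 above. The share of tested loci called rose with it, from 8.06% and 37.1% to 47.6%, 56.1% and 59.6%. The smallest log2 change called was 2.50 in size below a mean of 10 and 0.39 at 1000 to 10000. Changes under 2-fold were 36.8% of calls at 1000 to 10000 and 0.78% at 10 to 100. The median of the class of 1000 to 10000 lies close to the shift of 0.41 that the second centring takes out. Means are not per length, so a class mixes transcript length with abundance.

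**Figure D2:**
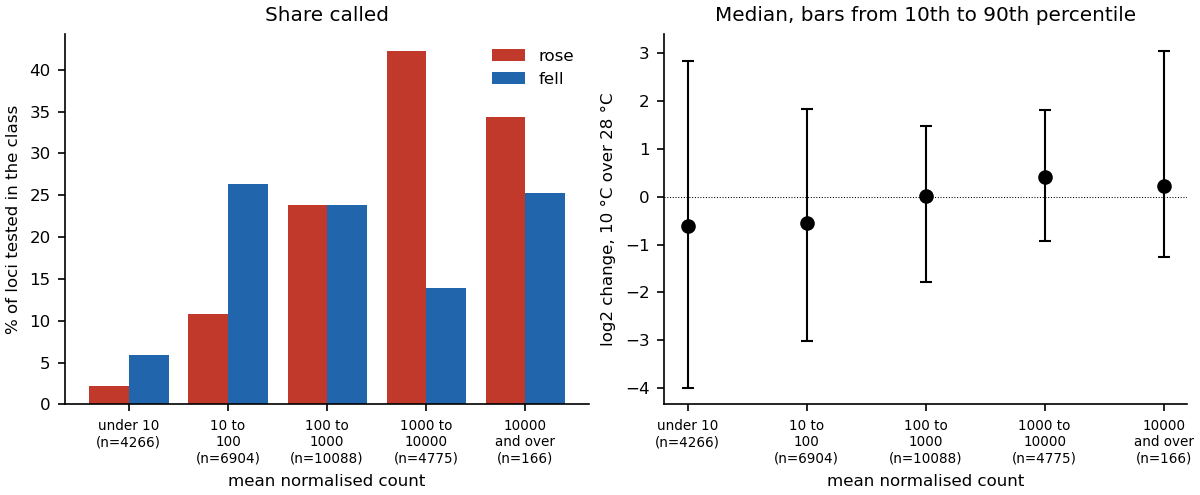
Left, percent of the tested loci of each abundance class that rose (red) or fell (blue). Right, the median deposited log2 change of each class (points), with bars from the 10th to the 90th percentile of its loci. Falls outnumbered rises at 10 to 100 (1816 against 748) and rises outnumbered falls at 1000 to 10000 (2015 against 664).

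The loci with the largest Wald statistics (the log2 change over its standard error, ± in the text, with n = 2 libraries per group) set the scale of the response. LOC_Os10g37660, which stands in no list, was at 40.6 and 51.1 at 28 °C and 1857 and 1663 at 10 °C, with a log2 change of 5.26 ± 0.26 (adjusted p = 2.18e-89) in the authors' deposited table. The next largest rise was that of LOC_Os08g06110, listed among the clock genes. LOC_Os01g40560 was at 4694 and 3947 at 28 °C and 18.3 and 19.2 at 10 °C and had a log2 change of -7.85 ± 0.36 (adjusted p = 4.37e-99) in the authors' deposited table. For LOC_Os03g02040 the levels were 2593 and 2401 at 28 °C and 183 and 178 at 10 °C, and the log2 change in the authors' deposited table was -3.79 ± 0.21 (adjusted p = 1.06e-69). At all 4 loci the libraries of a group lay close together and far from the other group. Among loci with a mean of at least 10000, LOC_Os01g50100 had the largest rise, with 148 and 129 at 28 °C and 28348 and 13139.8 at 10 °C and a log2 change of 7.23 ± 0.55 (adjusted p = 4.87e-36) in the authors' deposited table. The largest fall in that class belonged to LOC_Os02g51110, listed among the silicon transporters. None of the unlisted IDs is paired with a name in the tables.

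The labelled tissue was checked against markers. The 6 root markers share 4 loci with the list of silicon and metal transporters, among them LOC_Os02g51110, which alone was at 44111 and 15526 at 28 °C, so both lists describe the same falls in part. All 6 were detected at 28 °C, with summed levels of 76830 in library A and 23803 in library B, and at 10 °C the sums were 3608 and 5849. Of these markers 5 fell and 0 rose, and limma called 4 falls, with 0, 3, 0 and 2 without library A or B at 28 °C and A or B at 10 °C. Light-harvesting proteins, made in green shoots, were also detected, with sums of 6692 and 6600 at 28 °C and of 1967 and 1841 at 10 °C. None of the 12 light-harvesting loci was at 0 in any of the 4 libraries, 7 fell and 0 rose (median -2.40), against 11 falls when centred on loci with a mean of at least 1000, and limma called 7, with 5, 5, 5 and 6 in that order. For LOC_Os08g33820 the levels were 1073 and 931 at 28 °C and 41.6 and 69.7 at 10 °C, with a log2 change of -4.17 ± 0.66 (adjusted p = 4.96e-09) in the authors' deposited table. Of 12 Rubisco and photosystem subunits 8 fell and 1 rose (median -1.72), from sums of 7058 and 6462 to 2033 and 1844, and limma called 8 falls, with 4, 4, 7 and 5, and 1 rise, lost without each library. LOC_Os07g05360 led these falls, with 361 and 271 at 28 °C and 2.44 and 15.1 at 10 °C and a log2 change of -5.12 ± 0.64 (adjusted p = 7.72e-14) in the authors' deposited table. The summed levels of the shoot markers were close between the libraries of a group, although single members such as LOC_Os07g05360 were not, while the summed root markers differed over 3-fold between the controls. Library A at 28 °C stood apart in the root transporters, and library A at 10 °C in many loci that rose. The part of the shoot and root markers, and of the difference between the libraries, in the cold response was not tested. In bulk roots, fewer cells of a type and less RNA per cell cannot be told apart.

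Of the listed loci, 114 of 430 tested rose and 130 fell, which is 56.7% called against 40.0% over all loci. The lists were written with earlier results of these data known, so that share is no sign of a stronger response. Over all loci tested 20.3% rose and 19.7% fell, and the counts of each list below are to be read against these shares. By the share that rose less the share that fell, dehydrins, NAC factors, PP2C phosphatases, alternative oxidases and MYB factors stood highest, and DNA replication, cellulose synthases, silicon transporters, root markers and lignin enzymes lowest.

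**Figure D3:**
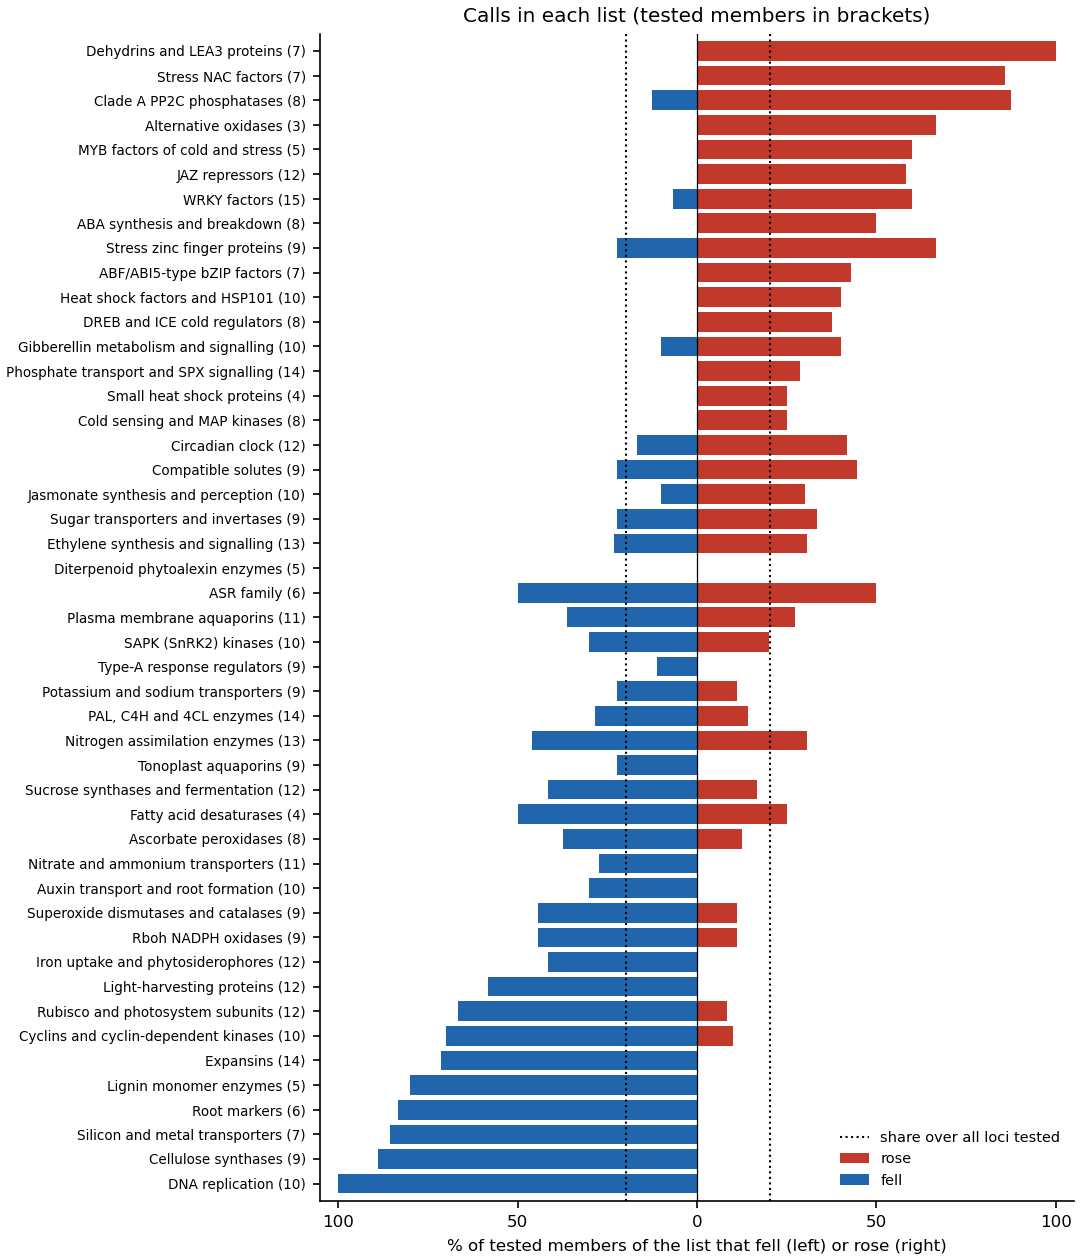
Percent of the tested members of each list that fell (blue, left) or rose (red, right) in the cold, ordered by the difference, with the number of tested members in brackets. Dotted lines mark the shares over all loci tested, 19.7% down and 20.3% up. All 7 tested dehydrins and LEA3 proteins rose and all 10 DNA replication loci fell.

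As deposited, most of the listed NAC, WRKY, MYB and zinc finger factors rose, and fewer of the DREB list did. Of 7 listed NAC factors, which switch on stress genes in many plants, 6 rose and 0 fell, with a median log2 change of 4.26 against -0.08 over all loci. Of 15 tested WRKY factors, known for defence and stress control, 9 rose and 1 fell (median 2.53). Of 9 stress zinc finger loci 6 rose and 2 fell (median 1.70), and of 5 MYB factors 3 rose and 0 fell (median 1.57). In the list of DREB and ICE regulators, the best known switches of cold genes, 3 of 8 tested rose and 0 fell (median 0.61). Centring on loci with a mean of at least 1000 left 6 NAC, 7 WRKY, 4 zinc finger, 2 MYB and 2 DREB rises. Falls then numbered 2 among the WRKY and 3 among the zinc finger loci. Only for the NAC list did most members rise under that centring.

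Among the NAC factors, LOC_Os11g03370 was at 34.8 and 27.1 at 28 °C and 2954 and 641 at 10 °C, and its log2 change was 5.86 ± 0.86 (adjusted p = 2.89e-10) in the authors' deposited table. LOC_Os11g03300 was at 135 and 50.3 at 28 °C and 6999 and 1672 at 10 °C, with a log2 change of 5.55 ± 0.74 (adjusted p = 3.17e-12) in the authors' deposited table. At both loci the cold libraries lay far above the control libraries, and library A at 10 °C was over 4 times library B. Both lie on chromosome 11, where reads could be shared with duplicate loci, since the treatment of reads with several matches is not given. The summed level of the NAC list was 23036 in library A and 5469 in library B at 10 °C, against 1072 and 698 at 28 °C. Limma called 5 of the 7 with all libraries, 5 without library A and 3 without library B at 28 °C, 3 without library A at 10 °C and 6 without library B.

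LOC_Os09g25070, listed as a WRKY factor, was at 3.32 and 0.798 at 28 °C and 329 and 146 at 10 °C, with a log2 change of 6.86 ± 0.87 (adjusted p = 1.09e-13) in the authors' deposited table. LOC_Os02g08440, also a WRKY factor in the list, was at 44.8 and 23.1 at 28 °C and 1407 and 462 at 10 °C and had a log2 change of 4.78 ± 0.66 (adjusted p = 1.20e-11) in the authors' deposited table. Libraries did not overlap between temperatures at either locus. LOC_Os08g38990 was the listed WRKY factor that fell, with 213 and 231 at 28 °C and 46.4 and 94.9 at 10 °C and a log2 change of -1.65 ± 0.64 (adjusted p = 0.0269) in the authors' deposited table, which limma did not call with all libraries or without any one tolerant library. The rises numbered 8 in limma with all libraries and 4, 4, 5 and 10 without library A or B at 28 °C and A or B at 10 °C.

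LOC_Os03g60560 is in the zinc finger list and was close to silent at 28 °C, with 0.829 and 0 at 28 °C and 216 and 59.6 at 10 °C. Its level was 321-fold higher, with a counting interval of 57.0 to 12723, and its adjusted p in the authors' deposited table was 9.70e-06. A second member, LOC_Os03g32230, reached its higher level in a single library, with 0.829 and 2.39 at 28 °C and 66.0 and 3.03 at 10 °C and an adjusted p of 0.0207 in the authors' deposited table, and limma did not call it with all libraries. LOC_Os06g41010, of the same list, was abundant and lower in the cold by a small amount, with 17996 and 16544 at 28 °C and 12093 and 10231 at 10 °C and a log2 change of -0.63 ± 0.26 (adjusted p = 0.0444) in the authors' deposited table. Limma did not make that call with all libraries or without any one of the 4. The zinc finger rises numbered 4 in limma, and 3, 1, 2 and 6 without library A or B at 28 °C and A or B at 10 °C.

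Of the DREB and ICE list, LOC_Os05g27930 was already expressed at 28 °C, with 1716 and 1871 at 28 °C and 10773 and 9651 at 10 °C and a log2 change of 2.51 ± 0.28 (adjusted p = 9.43e-18) in the authors' deposited table. This call held in limma without any one library. LOC_Os06g03670, in contrast, was near 0 at 28 °C, with 0 and 0.798 at 28 °C and 56.2 and 7.07 at 10 °C, and was 72.0-fold higher, with a counting interval of 12.4 to 2898 (adjusted p = 0.00339 in the authors' deposited table). Its level rested mainly on cold library A. Limma called 3 rises in the list, but 1 without library A or B at 28 °C or library A at 10 °C. The MYB factor LOC_Os10g41200 was at 1353 and 1161 at 28 °C and 8737 and 4312 at 10 °C and had a log2 change of 2.38 ± 0.48 (adjusted p = 7.88e-06) in the authors' deposited table, lost in limma without library B at 28 °C, and the MYB rises numbered 2 in limma and 2, 1, 2 and 4 without the libraries in that order. Of 8 cold sensing and MAP kinase loci 2 rose and 0 fell, with the larger change at LOC_Os01g32660, which was at 2087 and 1964 at 28 °C and 4880.4 and 4410.2 at 10 °C, a log2 change of 1.197 ± 0.23 (adjusted p = 3.26e-06) in the authors' deposited table.

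**Figure D4:**
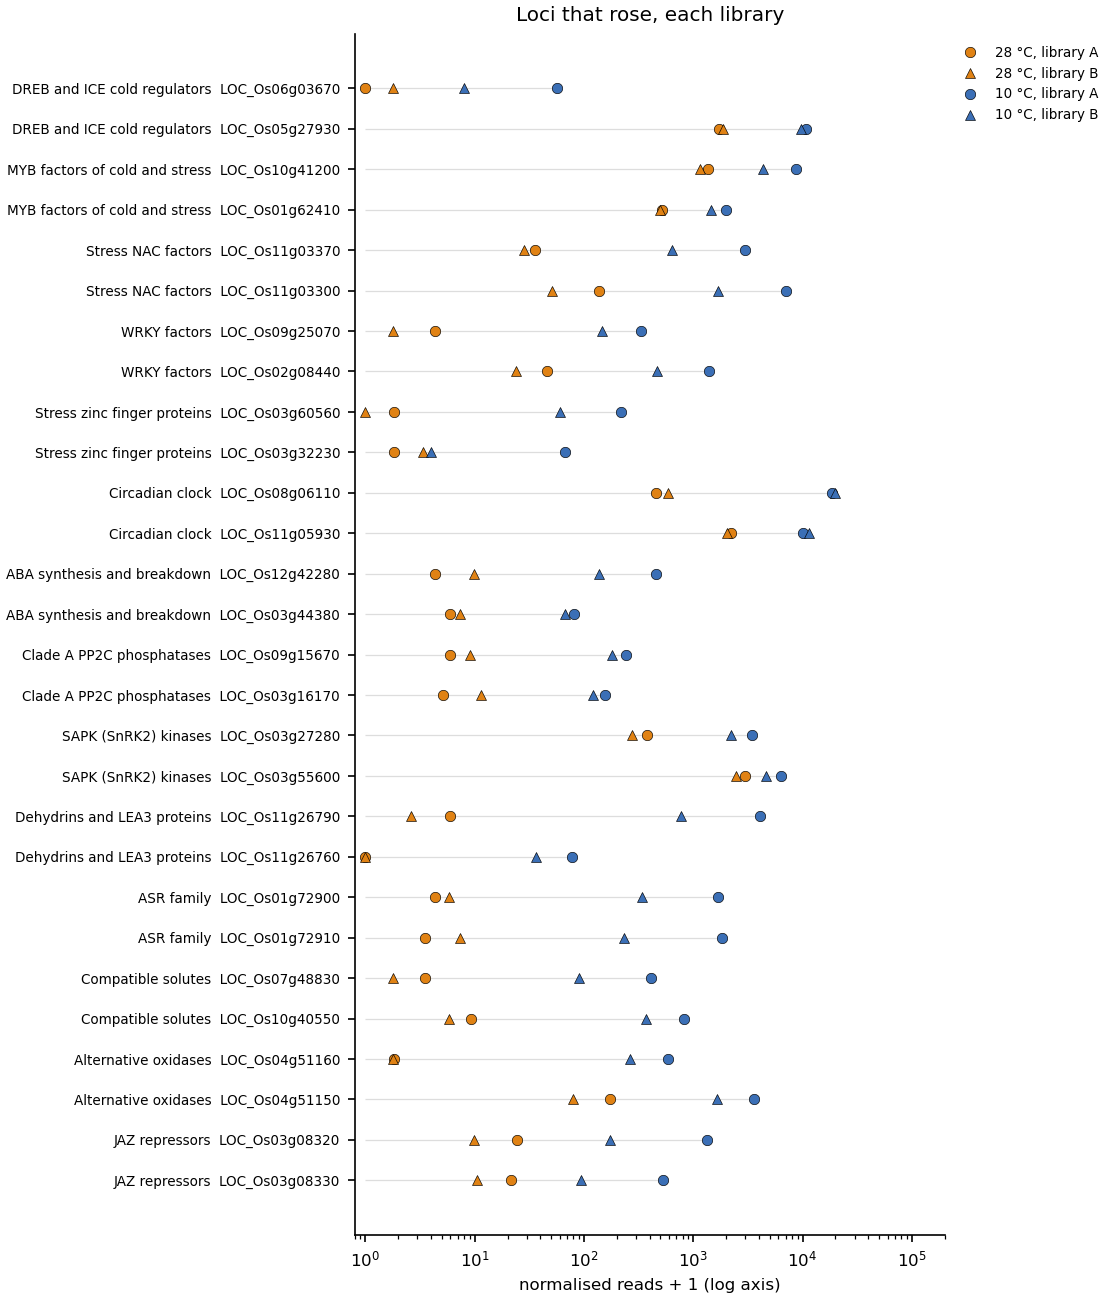
Normalised reads plus 1 (log axis) in each of the 4 tolerant libraries for the loci shown, up to 2 with the largest rises from each list named on the axis (the phenylpropanoid list is not plotted). Orange marks 28 °C and blue 10 °C, circles library A and triangles library B. Blue lies to the right of orange in every row plotted, and most cold circles lie to the right of the cold triangles, as for LOC_Os11g03370 at 2954 and 641.

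Clock genes moved in both directions. Of 12 listed clock loci, which keep daily time in plant cells, 5 rose and 2 fell (median 0.74). LOC_Os08g06110 had the next to largest Wald statistic of a rise among all loci, with 452 and 581 at 28 °C and 18681 and 19806 at 10 °C, and its log2 change was 5.22 ± 0.27 (adjusted p = 2.59e-78) in the authors' deposited table. LOC_Os11g05930 was at 2225 and 2027 at 28 °C and 10175 and 11515 at 10 °C, a log2 change of 2.35 ± 0.20 (adjusted p = 1.32e-30) in the authors' deposited table. At both loci the groups were separated by far more than the libraries within them. LOC_Os01g74020 went the other way, with 236 and 207 at 28 °C and 35.4 and 47.4 at 10 °C and a log2 change of -2.41 ± 0.40 (adjusted p = 1.84e-08) in the authors' deposited table. LOC_Os01g08700 was among the abundant members, with 38015 and 32749 at 28 °C and 22694 and 24562 at 10 °C. It fell by a small amount, with a log2 change of -0.58 ± 0.22 (adjusted p = 0.0221) in the authors' deposited table. That fall was not called by limma with all libraries or without any one tolerant library. Limma called 5 rises with all libraries and without each one. The hour at which roots were cut is not known, so the part of sampling time in these values was not tested.

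In the ABA lists, 4 metabolism loci and 7 phosphatases rose. Of 8 loci for synthesis and breakdown 4 rose and 0 fell (median 1.98), and of 8 tested clade A PP2C phosphatases, which hold the ABA signal in check, 7 rose and 1 fell (median 2.70). LOC_Os12g42280 of the metabolism list was at 3.32 and 8.78 at 28 °C and 453 and 135 at 10 °C, with a log2 change of 5.60 ± 0.80 (adjusted p = 9.39e-11) in the authors' deposited table. Its fellow member LOC_Os03g44380 was at 4.98 and 6.39 at 28 °C and 80.7 and 66.6 at 10 °C and had a log2 change of 3.69 ± 0.62 (adjusted p = 3.40e-08) in the authors' deposited table. Both were low at 28 °C and over 9-fold higher in each cold library. Limma called 3 rises in this list with all libraries and without each one.

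LOC_Os09g15670, a listed PP2C phosphatase, was at 4.98 and 7.98 at 28 °C and 242 and 179 at 10 °C, a log2 change of 5.02 ± 0.55 (adjusted p = 7.89e-18) in the authors' deposited table. LOC_Os03g16170, of the same family in the list, was at 4.15 and 10.4 at 28 °C and 154 and 120.1 at 10 °C, with a log2 change of 4.23 ± 0.67 (adjusted p = 5.94e-09) in the authors' deposited table. The single fall in the family was LOC_Os01g46760, with 129 and 136 at 28 °C and 18.3 and 37.3 at 10 °C and a log2 change of -2.24 ± 0.47 (adjusted p = 1.74e-05) in the authors' deposited table. For both risers the cold libraries stayed within 2-fold of each other, and limma called the same numbers, 7 up and 1 down, with all libraries and without each one. Of 10 SAPK kinases, rice SnRK2 enzymes that carry the ABA and osmotic signal, 2 rose and 3 fell (median 0.50). These shares of 20% and 30% stand beside 20.3% and 19.7% over all loci tested. Rises and falls numbered 5 and 3 when centred on all loci tested and 1 and 3 when centred on loci with a mean of at least 1000. LOC_Os03g27280 rose most, with 374 and 274 at 28 °C and 3469.96 and 2207 at 10 °C and a log2 change of 3.13 ± 0.39 (adjusted p = 3.26e-14) in the authors' deposited table, and LOC_Os10g41490 fell most, with 2393 and 1161 at 28 °C and 375 and 528 at 10 °C and -1.98 ± 0.44 (adjusted p = 4.99e-05), a call limma lost without library A of either group. Limma called 2 SAPK rises, and 1, 1, 1 and 4 without library A or B at 28 °C and A or B at 10 °C, beside 3 falls and 2, 2, 1 and 3. Of 7 ABF/ABI5-type bZIP factors, which bind ABA-responsive promoters, 3 rose and 0 fell (median 0.55), against 1 rise when centred on loci with a mean of at least 1000, and in limma 3 rises became 1, 0, 2 and 2 in the same order.

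Dehydrins and LEA3 proteins, hydrophilic proteins known from drying seeds and stressed tissue, had the highest median of all lists. All 7 tested members rose, with a median log2 change of 7.53, or 7.13 with the 2 members without a control read at their bound. LOC_Os11g26790 was at 4.98 and 1.60 at 28 °C and 4076 and 777 at 10 °C, a log2 change of 9.53 ± 1.51 (adjusted p = 5.34e-09) in the authors' deposited table. LOC_Os11g26760 had 0 reads in both control libraries and levels of 77.0 and 35.3 at 10 °C, which is at least 44.4-fold higher (adjusted p = 8.09e-07 in the authors' deposited table). The most abundant member, LOC_Os02g44870, chosen after its values were seen, was already present at 28 °C, with 2266 and 1263 at 28 °C and 20539.9 and 10383 at 10 °C, and had a log2 change of 3.13 ± 0.53 (adjusted p = 6.31e-08) in the authors' deposited table. Both cold libraries lay above both controls at all 7, against 34.2% of all loci with recovered reads. Since only 20 of all called loci overlapped, this adds little to the 7 calls. The LOC_Os11g26790 and LOC_Os11g26760 loci lie in a row of near neighbours, so reads could be split or shared between them. The summed level was 28953 and 12590 at 10 °C against 2292 and 1282 at 28 °C, and limma called all 7 without each library.

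The ASR family, small proteins named for ABA, stress and ripening, split evenly, with 3 rises and 3 falls of 6. LOC_Os01g72900 was at 3.32 and 4.79 at 28 °C and 1669.6 and 340.2 at 10 °C, with a log2 change of 7.95 ± 1.29 (adjusted p = 1.34e-08) in the authors' deposited table, and its neighbour LOC_Os01g72910 was at 2.49 and 6.39 at 28 °C and 1836 and 230.2 at 10 °C, with 7.86 ± 1.41 (adjusted p = 2.98e-07). The abundant member LOC_Os11g06720 fell, with 26497 and 12268 at 28 °C and 5578 and 3055 at 10 °C and a log2 change of -2.17 ± 0.44 (adjusted p = 7.46e-06) in the authors' deposited table. Both neighbours were over 4 times higher in cold library A than in B, while the fall was shared by both libraries. Limma called 3 rises and 2 falls, and without library A or B at 28 °C and A or B at 10 °C it called 3, 2, 2 and 3 rises and 1, 2, 2 and 1 falls.

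Of 9 loci for compatible solutes, the small molecules that protect cells from water loss, 4 rose and 2 fell (median 0.34), against 3 and 3 (median -0.07) when centred on loci with a mean of at least 1000. LOC_Os07g48830 of that list was at 2.49 and 0.798 at 28 °C and 407 and 88.8 at 10 °C, with a log2 change of 7.24 ± 1.203 (adjusted p = 2.81e-08) in the authors' deposited table. For LOC_Os10g40550 the levels were 8.29 and 4.79 at 28 °C and 819 and 371 at 10 °C and the log2 change in the authors' deposited table was 6.51 ± 0.75 (adjusted p = 3.65e-16). Both were below 10 at 28 °C and above 80 in each cold library. LOC_Os01g62900 went down, with 371 and 530.01 at 28 °C and 95.3 and 54.5 at 10 °C and a log2 change of -2.59 ± 0.57 (adjusted p = 3.64e-05) in the authors' deposited table, a call limma lost without library B at 28 °C. LOC_Os05g44210 also fell, with 1684 and 2173 at 28 °C and 389 and 529.95 at 10 °C and -2.07 ± 0.27 (adjusted p = 4.50e-13) in the authors' deposited table. The rises of the list numbered 4 in limma, and 4, 2, 3 and 3 without library A or B at 28 °C and A or B at 10 °C. Falls numbered 2, and 2, 1, 2 and 2 in that order.

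Of 10 heat shock factors and HSP101, 4 rose and 0 fell (median -0.08, or 0.01 when centred on all loci tested), led by LOC_Os05g45410 with 39.8 and 24.7 at 28 °C and 511 and 205 at 10 °C and a log2 change of 3.47 ± 0.63 (adjusted p = 4.96e-07) in the authors' deposited table. Centred on loci with a mean of at least 1000, 3 rose and 2 fell (median -0.49). Without either control library or cold library A, limma called 2 rises. Of 4 tested small heat shock proteins 1 rose and 0 fell, the rise was lost in limma without either control library or cold library A, and 3 listed members were below the filter on low means. Of 4 fatty acid desaturases, which add double bonds to membrane lipids, 1 rose and 2 fell. The riser, LOC_Os03g18070, was at 464 and 474 at 28 °C and 10797 and 3353 at 10 °C, and its log2 change was 3.92 ± 0.61 (adjusted p = 3.40e-09) in the authors' deposited table, called by limma without each library. Limma called 2 falls, and 0, 0, 1 and 1 without library A or B at 28 °C and A or B at 10 °C.

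Alternative oxidases, mitochondrial enzymes that bypass part of the respiratory chain, rose from low levels. Of 3 tested members 2 rose and 0 fell, and limma called both without each library. LOC_Os04g51160 had a single read in each control library and was at 0.829 and 0.798 at 28 °C and 583 and 261 at 10 °C. Its level was 500.2-fold higher, with a counting interval of 138 to 4138, with an adjusted p of 7.73e-11 in the authors' deposited table. LOC_Os04g51150 was at 171 and 78.2 at 28 °C and 3597 and 1663 at 10 °C, a log2 change of 4.40 ± 0.58 (adjusted p = 8.41e-13) in the authors' deposited table. Cold library A was at more than 2 times library B at both loci, and both lay above the controls.

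Among the enzymes that remove reactive oxygen both rises and falls passed the test. Of 9 superoxide dismutases and catalases 1 rose and 4 fell (median -0.41), and of 8 ascorbate peroxidases 1 rose and 3 fell (median -0.89). LOC_Os07g49400 of the peroxidase list was at 12809 and 9350.3 at 28 °C and 1522 and 1319 at 10 °C, and its log2 change was -2.96 ± 0.26 (adjusted p = 1.43e-27) in the authors' deposited table. LOC_Os02g02400 of the dismutase and catalase list was at 8305 and 9035 at 28 °C and 2333 and 3186 at 10 °C, with a log2 change of -1.65 ± 0.63 (adjusted p = 0.0252) in the authors' deposited table. The libraries at 10 °C were lower than both controls at each of these loci, but the call of LOC_Os02g02400 was not made by limma with all libraries or without any one tolerant library. In the same list LOC_Os03g03910 rose from a low level, with 48.1 and 21.6 at 28 °C and 277 and 185 at 10 °C and a log2 change of 2.73 ± 0.51 (adjusted p = 8.65e-07) in the authors' deposited table. Limma called 3 falls among the dismutases and catalases, and 1, 0, 2 and 3 without library A or B at 28 °C and A or B at 10 °C, beside 1 rise each time. The rise in the peroxidases was called with all libraries and lost without each. Of 9 Rboh NADPH oxidases, which make superoxide at the cell surface, 1 rose and 4 fell (median -0.64). LOC_Os01g25820 led the falls, with 3389 and 3370.1 at 28 °C and 596 and 1028 at 10 °C and a log2 change of -2.06 ± 0.31 (adjusted p = 6.74e-10) in the authors' deposited table. The Rboh falls numbered 3 in limma and 1, 1, 2 and 3 in the same order, and the rise called in the deposited table was not called by limma with all libraries.

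Among water channels both rises and falls passed the test. Of 11 plasma membrane aquaporins, which let water into root cells, 3 rose and 4 fell (median -0.52). These shares were 27.3% and 36.4%, against 20.3% and 19.7% over all loci tested. LOC_Os07g26660 was at 206 and 212 at 28 °C and 1055 and 858 at 10 °C, with a log2 change of 2.197 ± 0.33 (adjusted p = 6.48e-10) in the authors' deposited table, while LOC_Os04g16450 was at 4144 and 3511 at 28 °C and 788 and 330.1 at 10 °C, with -2.78 ± 0.43 (adjusted p = 1.78e-09). The most abundant member at 28 °C, LOC_Os02g44630, was at 30837 and 28057 at 28 °C and 14808 and 11718 at 10 °C and fell by a log2 change of -1.15 ± 0.26 (adjusted p = 6.07e-05) in the authors' deposited table. In each case both cold libraries were on the same side of both controls. Of 9 tested tonoplast aquaporins 0 rose and 2 fell (median -0.57), and the falls were 22.2%, near the 19.7% over all loci tested. LOC_Os06g22960 was at 5752 and 3739 at 28 °C and 1489 and 559 at 10 °C, a log2 change of -2.21 ± 0.46 (adjusted p = 1.17e-05) in the authors' deposited table. Limma called 4 falls and 3 rises among the plasma membrane members, and without library A at 28 °C only 1 fall, the call of LOC_Os02g44630 being among those lost, and without library B at 28 °C or either cold library 2 rises.

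Transporters for silicon, manganese and other metals fell in 6 of 7 cases with 0 rises (median -2.59). LOC_Os02g51110 was at 44111 and 15526 at 28 °C and 787 and 1727 at 10 °C, and its log2 change was -4.57 ± 0.80 (adjusted p = 1.50e-07) in the authors' deposited table. LOC_Os06g12310 was at 1229 and 655 at 28 °C and 84.3 and 51.5 at 10 °C, a log2 change of -3.80 ± 0.64 (adjusted p = 3.84e-08) in the authors' deposited table. All cold libraries lay below all control libraries at both loci, but the controls themselves stood apart, and limma lost both calls without control library A and that of LOC_Os02g51110 also without cold library A. The summed level of the list was 80757 in library A and 26280 in library B at 28 °C, against 4566 and 9589 at 10 °C. Limma called 5 falls with all libraries, 0 without library A and 4 without library B at 28 °C, and 1 and 4 without library A or B at 10 °C.

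Iron uptake showed the same gap between the controls. Rice takes up iron both as the free ion and bound to phytosiderophores, chelators that grass roots release. Of 12 listed loci 0 rose and 5 fell (median -2.00). LOC_Os02g43410 was at 24573 and 4857 at 28 °C and 545 and 215 at 10 °C, with a log2 change of -5.28 ± 0.83 (adjusted p = 3.40e-09) in the authors' deposited table. LOC_Os03g46470 was at 2676 and 452 at 28 °C and 95.3 and 23.2 at 10 °C, with a log2 change of -4.73 ± 0.82 (adjusted p = 1.39e-07) in the authors' deposited table. Library A at 28 °C was 5 or more times library B at both loci, and both were above the cold libraries. The list summed to 71182 and 22651 at 28 °C and to 6667 and 8559 at 10 °C. LOC_Os03g19427 of the same list overlapped between temperatures, with 4564 and 908 at 28 °C and 1085 and 379 at 10 °C, and did not pass, with a log2 change of -1.90 ± 1.57 (adjusted p = 0.343) in the authors' deposited table. Limma called 3 falls, and 2, 3, 2 and 3 without library A or B at 28 °C and A or B at 10 °C.

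Of 11 nitrate and ammonium transporters 0 rose and 3 fell (median -0.81), that is 27.3% fallen against 19.7% over all loci tested. Both cold libraries lay below both controls at 4 of the 11, against 39.0% of all loci with recovered reads. LOC_Os02g38230 was at 715 and 199 at 28 °C and 52.6 and 110.03 at 10 °C and had a log2 change of -2.49 ± 0.66 (adjusted p = 7.54e-04) in the authors' deposited table, which limma lost without library A of either group. Limma called 1 fall in the list, and 0, 3, 0 and 1 without library A or B at 28 °C and A or B at 10 °C. Of 14 phosphate transport and SPX loci 4 rose and 0 fell (median -0.18), while centring on loci with a mean of at least 1000 gave 2 rises and 3 falls. LOC_Os02g56510 was at 8484 and 9285 at 28 °C and 17355 and 28115 at 10 °C, a log2 change of 1.36 ± 0.28 (adjusted p = 1.17e-05) in the authors' deposited table. Its rise was called by limma without each library, while the list's 4 rises became 2 without either control library or cold library A. Of 9 potassium and sodium transporters 1 rose and 2 fell (median -0.75), against 4 falls when centred on loci with a mean of at least 1000. LOC_Os01g20160 was at 287 and 260.2 at 28 °C and 7.33 and 18.2 at 10 °C, with a log2 change of -4.39 ± 0.45 (adjusted p = 5.31e-20) in the authors' deposited table. The riser of that list, LOC_Os03g37930, was at 119 and 148 at 28 °C and 1260.1 and 493 at 10 °C, with a log2 change of 2.71 ± 0.81 (adjusted p = 0.00308) in the authors' deposited table, and limma did not call it with all libraries or without any one tolerant library.

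Enzymes of nitrogen assimilation, which turn nitrate into amino acids, changed in both directions. Of 13 loci 4 rose and 6 fell (median -0.52). LOC_Os01g25484 was at 9902 and 4881 at 28 °C and 325 and 406 at 10 °C, and its log2 change was -4.34 ± 0.37 (adjusted p = 1.91e-29) in the authors' deposited table. LOC_Os04g56400 was at 1771 and 969 at 28 °C and 296 and 324 at 10 °C, with a log2 change of -2.14 ± 0.35 (adjusted p = 1.41e-08) in the authors' deposited table. LOC_Os03g50490 rose, with 57.2 and 43.9 at 28 °C and 1358 and 461 at 10 °C and a log2 change of 4.17 ± 0.66 (adjusted p = 5.66e-09) in the authors' deposited table. LOC_Os03g18130 was at 1587 and 649.7 at 28 °C and 15601 and 5025 at 10 °C, with 3.20 ± 0.68 (adjusted p = 2.01e-05) in the authors' deposited table. Library A was at about 3 times library B in the cold for both risers, and the call of LOC_Os03g18130 was lost in limma without library B at 28 °C or library A at 10 °C. Limma called 4 rises and 4 falls, and without library A or B at 28 °C and A or B at 10 °C 3, 2, 2 and 4 rises and 3, 3, 3 and 6 falls.

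Of 12 loci for sucrose synthases, which feed sucrose into metabolism, and for the enzymes of fermentation, 2 rose and 5 fell (median -0.24). LOC_Os03g28330 was at 69469 and 59413 at 28 °C and 13583 and 9287 at 10 °C, a log2 change of -2.49 ± 0.38 (adjusted p = 7.47e-10) in the authors' deposited table. LOC_Os03g18220 was at 2908 and 3163 at 28 °C and 1044 and 976 at 10 °C, with a log2 change of -1.59 ± 0.18 (adjusted p = 5.47e-16) in the authors' deposited table. LOC_Os01g06660 went up instead, with 653 and 394 at 28 °C and 3364 and 2826 at 10 °C and a log2 change of 2.56 ± 0.41 (adjusted p = 1.13e-08) in the authors' deposited table. In these 3 loci both libraries of a group stayed within 2-fold of each other. Limma called 5 falls, and 2, 4, 2 and 2 without library A or B at 28 °C and A or B at 10 °C, with 2 rises that became 1 without library A of either group. Of 9 tested sugar transporters and invertases 3 rose and 2 fell (median 0.23, or -0.18 when centred on loci with a mean of at least 1000). LOC_Os04g33740 was at 612 and 805 at 28 °C and 58.7 and 136 at 10 °C, with a log2 change of -2.86 ± 0.47 (adjusted p = 1.45e-08) in the authors' deposited table. The sugar transporter rises numbered 3 in limma and 2, 1, 1 and 3 in the same order.

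DNA replication fell as a whole list. All 10 loci, which cover the MCM helicase, the sliding clamp and ribonucleotide reductase, were lower in the cold, with a median log2 change of -1.71 and a range of -2.44 to -0.87. LOC_Os02g56130 was at 2022 and 2684 at 28 °C and 449.8 and 471 at 10 °C, a log2 change of -2.35 ± 0.23 (adjusted p = 2.70e-22) in the authors' deposited table. LOC_Os02g56100 was at 206 and 228 at 28 °C and 26.9 and 52.5 at 10 °C, with a log2 change of -2.44 ± 0.47 (adjusted p = 1.79e-06) in the authors' deposited table. Cold libraries lay below both controls at all 10 loci, against 39.0% of all loci with recovered reads. Since only 20 of all called loci overlapped, this adds little to the 10 calls. Limma called 10, and 9, 8, 10 and 10 without library A or B at 28 °C and A or B at 10 °C. Of 10 cyclins and cyclin-dependent kinases, the drivers of the cell cycle, 7 fell and 1 rose (median -1.52). LOC_Os05g41390 was at 629 and 821 at 28 °C and 73.3 and 56.5 at 10 °C, with a log2 change of -3.49 ± 0.37 (adjusted p = 2.16e-19) in the authors' deposited table. LOC_Os03g02680 rose, with 1819.5 and 2167 at 28 °C and 4632 and 3763 at 10 °C and a log2 change of 1.07 ± 0.25 (adjusted p = 1.42e-04) in the authors' deposited table, lost in limma without library A at 28 °C. Limma called 7 falls, and 6, 5, 6 and 6 in that order.

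Most cellulose synthases and expansins fell. Of 9 tested cellulose synthases, which spin cellulose at the cell surface, 8 fell and 0 rose (median -1.27), although centring on all loci tested gave 6 falls and 1 rise. LOC_Os10g32980 was at 2147 and 2244 at 28 °C and 418 and 386 at 10 °C, and its log2 change was -2.45 ± 0.26 (adjusted p = 9.13e-19) in the authors' deposited table. LOC_Os01g54620 was at 3545 and 3574 at 28 °C and 754 and 853 at 10 °C, a log2 change of -2.15 ± 0.24 (adjusted p = 3.51e-17) in the authors' deposited table. The libraries within a group agreed to a small part of the change at both. Limma called 8 falls in that family, and 5 without either control library or without cold library A. Of 14 expansins, which loosen walls as cells grow, 10 fell and 0 rose (median -2.01). LOC_Os06g01920 lost its signal, with levels of 135 and 35.1 at 28 °C and 0 reads in both cold libraries, so that it was at least 50.8-fold lower in the cold (adjusted p = 4.12e-06 in the authors' deposited table). LOC_Os04g46650 followed the same course, with 122 and 33.5 at 28 °C and 0 reads at 10 °C, at least 46.3-fold lower in the cold (adjusted p = 5.38e-06 in the authors' deposited table). An abundant expansin, LOC_Os10g40730, chosen after its values were seen, was at 1725 and 1547 at 28 °C and 53.8 and 127 at 10 °C, with a log2 change of -4.17 ± 0.57 (adjusted p = 1.09e-11) in the authors' deposited table. Limma called 8 of the 10 falls, and 7 to 9 without one library.

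Of 14 tested loci of the phenylpropanoid entry steps, which supply lignin and defence compounds, 2 rose and 4 fell (median -0.28). LOC_Os08g14760 was at 1389 and 627 at 28 °C and 57.4 and 90.8 at 10 °C, with a log2 change of -3.76 ± 0.49 (adjusted p = 4.52e-13) in the authors' deposited table. LOC_Os04g43800 went up, with 35.7 and 23.1 at 28 °C and 191 and 219 at 10 °C and a log2 change of 2.80 ± 0.56 (adjusted p = 5.91e-06) in the authors' deposited table. The other riser, LOC_Os02g41670, was the only listed call whose libraries overlapped, with 104 and 62.3 at 28 °C and 389 and 97.9 at 10 °C (adjusted p = 0.0371 in the authors' deposited table), and limma did not call it with all libraries. The entry-step rises numbered 1 in limma, and 1, 1, 1 and 3 without library A or B at 28 °C and A or B at 10 °C, beside 4 falls each time. Of 5 lignin monomer enzymes 4 fell and 0 rose (median -1.44), and limma called 3 with all libraries, 2 without library B at 28 °C and 0 without any other tolerant library. Of 5 tested diterpenoid phytoalexin enzymes 0 passed in either direction, their levels stayed below 50, and 6 listed members were below the filter.

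**Figure D5:**
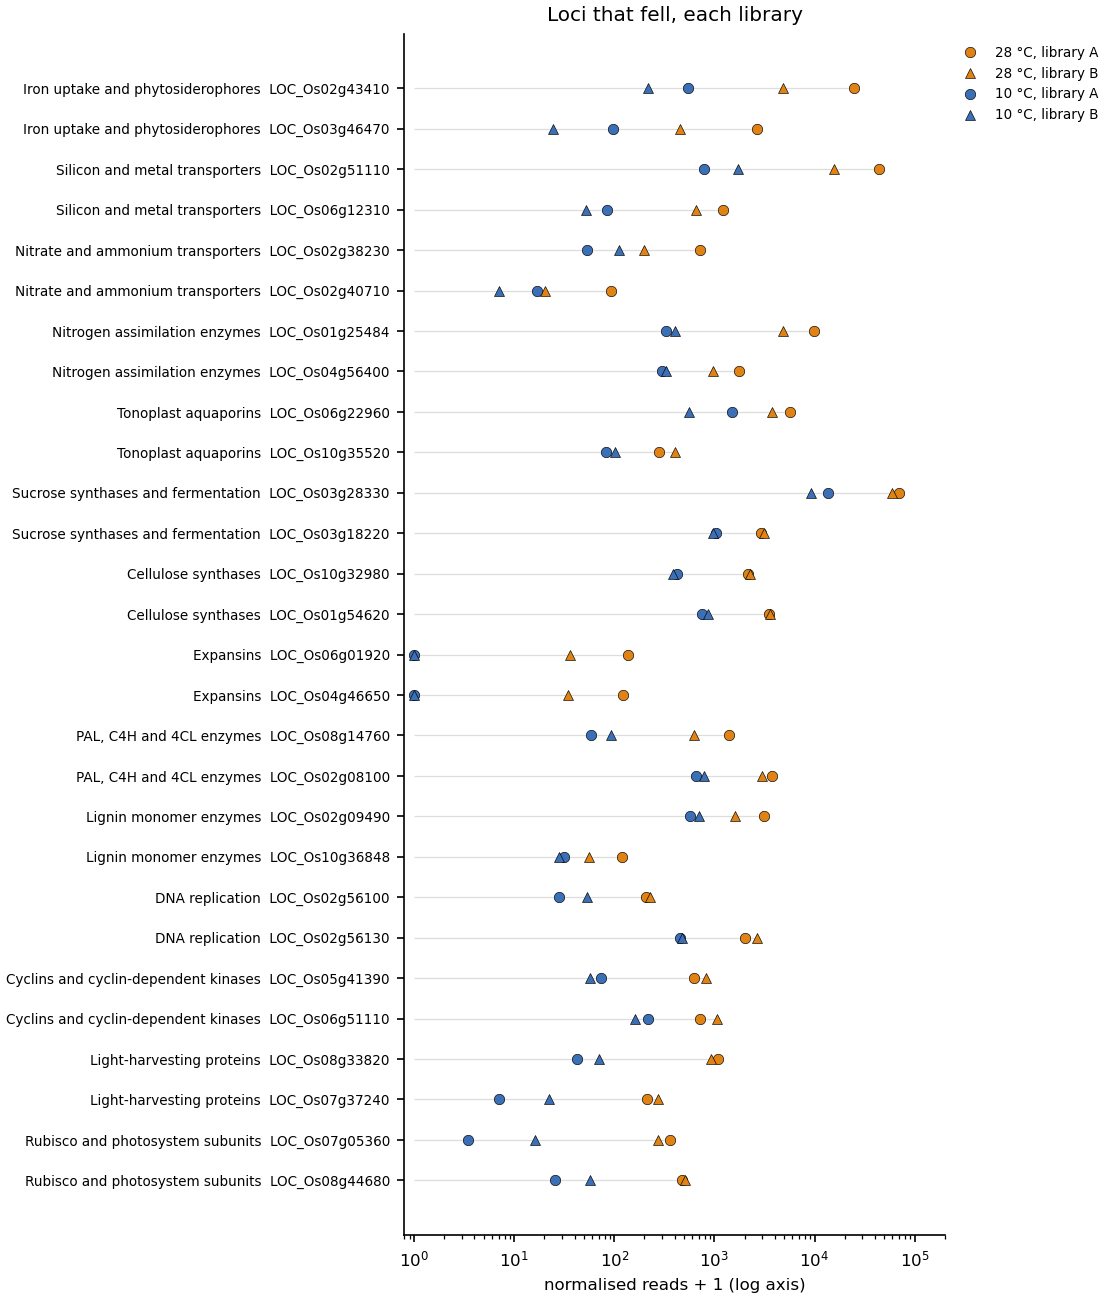
Normalised reads plus 1 (log axis) in each of the 4 tolerant libraries for up to 2 loci per list with the largest falls. Orange marks 28 °C and blue 10 °C, circles library A and triangles library B. Blue lies to the left of orange in every row, and the control circles and triangles stand apart for iron, silicon and nitrate transporters and for both expansins, as for LOC_Os02g43410 at 24573 and 4857.

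Hormone lists differed in direction. Of 12 tested JAZ repressors, which hold back jasmonate responses, 7 rose and 0 fell (median 2.50). LOC_Os03g08320 was at 23.2 and 8.78 at 28 °C and 1324 and 172 at 10 °C, and its log2 change was 5.55 ± 0.96 (adjusted p = 1.00e-07) in the authors' deposited table. LOC_Os03g08330, next to it in the list, was at 20.7 and 9.58 at 28 °C and 526 and 93.9 at 10 °C, with 4.35 ± 0.95 (adjusted p = 3.39e-05) in the authors' deposited table. Cold library A was over 5 times library B at both, and limma lost each without library B at 28 °C or cold library A, and LOC_Os03g08330 also without library A at 28 °C. The JAZ rises were 6 in limma, and 3, 2, 2 and 9 without library A or B at 28 °C and A or B at 10 °C. Of 10 loci for jasmonate synthesis and perception 3 rose and 1 fell (median 0.07), against 2 and 3 (median -0.34) when centred on loci with a mean of at least 1000, and limma called 1 rise with all libraries and 0, 0, 0 and 2 in the same order, beside 1 fall and 0, 0, 1 and 0.

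Of 10 tested gibberellin loci 4 rose and 1 fell (median 0.36, or -0.05 when centred on loci with a mean of at least 1000). Gibberellins promote growth, and the list holds enzymes that make and that inactivate them as well as parts of their signalling. LOC_Os01g55240 was at 134 and 170.02 at 28 °C and 809 and 586 at 10 °C, a log2 change of 2.196 ± 0.41 (adjusted p = 7.42e-07) in the authors' deposited table. LOC_Os03g63970 was at 385 and 274 at 28 °C and 25.7 and 64.6 at 10 °C, with a log2 change of -2.86 ± 0.61 (adjusted p = 2.06e-05) in the authors' deposited table. Neither locus overlapped between temperatures. Limma called 4 rises, and 3, 2, 2 and 4 without library A or B at 28 °C and A or B at 10 °C, and 1 fall, lost without library A at 28 °C.

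Of 10 tested loci for auxin transport and root formation 0 rose and 3 fell (median -1.04), with LOC_Os01g63770 at 1776 and 1622 at 28 °C and 662 and 629.9 at 10 °C and a log2 change of -1.39 ± 0.29 (adjusted p = 8.99e-06) in the authors' deposited table. Of 9 tested type-A response regulators, which damp cytokinin signals, 0 rose and 1 fell (median -0.75), against 5 falls when centred on loci with a mean of at least 1000. The called locus was LOC_Os02g35180, with 857 and 646 at 28 °C and 55.0 and 78.7 at 10 °C and a log2 change of -3.49 ± 0.43 (adjusted p = 5.09e-14) in the authors' deposited table. The auxin falls became 2 without each library in limma, and those of the response regulators 1, 2, 1 and 5 without library A or B at 28 °C and A or B at 10 °C. Of 13 loci for ethylene, a gas hormone of stress, 4 rose and 3 fell (median 0.55), against 2 and 3 when centred on loci with a mean of at least 1000. LOC_Os07g06130 was at 3408 and 3123 at 28 °C and 7151 and 7710.1 at 10 °C, a log2 change of 1.19 ± 0.19 (adjusted p = 1.61e-08) in the authors' deposited table. LOC_Os02g53180 was at 165 and 114 at 28 °C and 17.1 and 22.2 at 10 °C, with -2.82 ± 0.49 (adjusted p = 1.58e-07) in the authors' deposited table. Limma called 4 ethylene rises, and 1, 1, 2 and 4 in the same order, and 3 falls that became 2 without library A at 28 °C.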

How the data were processed

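RNA from roots of 2 rice lines at 28 °C and 10 °C was sequenced by the authors as poly-A, single-end reads of 50 bp, per the labels' protocols, in 8 libraries. The 4 deposited tables have the columns of a DESeq2 results table, per the file headers. The mean per ID is a normalised signal computed by the authors as counts over size factors. The log2 fold changes, standard errors, the score (Wald statistic) and each p-value and adjusted p-value are as deposited by the authors. The submitters' processing notes name Bowtie 0.12.7. The table names point to another aligner, and the sources used here give no genome build, annotation, counter, strand setting or treatment of reads with several matches, so neighbouring and duplicate loci, such as those on chromosomes 11 and 12, are uncertain.

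The deposited means, changes and standard errors were solved for whole reads per library. Size factors came from loci with a single read. Of 35835 IDs, 35828 had exactly 1 solution (99.98%), at a tolerance of 0.001 to 0.01 reads, and 7 had several and were left without levels. The recovery and limma were tested on simulated data. Which replicate number a library carries could not be told. Reads were normalised by size factor, log2 of levels + 1 was tested with limma 3.58.1 (R 4.3.3, trend), and each library was left out in turn. The recovery and limma were added after the data were seen. The planned count test with edgeR was replaced by limma, because the deposited unit is not counts.

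Calls used the deposited adjusted p below 0.05, with a fit over all 4 groups, and with no replicate block. For a locus without a read in one group, the level of the other group was divided by a floor of 3 reads in the group, a lower bound, and with 1 to 3 reads the ratio with its exact 95% interval, which covers counting error only. Values after ± are standard errors with n = 2 libraries per group. The members and lists were chosen with earlier results of these data known. Named loci were, per list, the 2 largest rises and falls among called members with a mean of at least 20, and the 2 largest of each direction by Wald statistic; other named members define their list or are marked. No ID matched the reference table, so no gene names, coordinates or sequences are given.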

Additional observations from a re-analysis of the deposited data

Results flagged for a closer look

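The response of 7 loci in the lists or among the largest changes differed between the lines in a Wald test of the difference (adjusted over 26199 loci, 163 of which passed). Differences are tolerant minus sensitive in log2, with the responses of both lines from the authors' deposited tables and ± standard errors. LOC_Os01g40560, with the largest Wald statistic of a fall, changed by -7.85 ± 0.36 in tolerant and by -5.94 ± 0.32 in sensitive roots, a difference of -1.90 (adjusted p = 0.0213). LOC_Os01g41710, a listed light-harvesting protein, changed by -3.15 ± 0.46 in tolerant and by -0.41 ± 0.45 in sensitive roots, a difference of -2.75 (adjusted p = 0.00942). Its sensitive control libraries held 298 and 867 reads and its sensitive cold libraries 229 and 379. The sensitive change and the difference therefore rest on controls that stood apart. LOC_Os01g54620, a listed cellulose synthase, changed by -2.15 ± 0.24 in tolerant and by -3.65 ± 0.24 in sensitive roots, a difference of 1.51 (adjusted p = 0.00697). LOC_Os09g25490, another listed cellulose synthase, changed by -1.89 ± 0.23 in tolerant and by -3.55 ± 0.23 in sensitive roots, a difference of 1.66 (adjusted p = 0.000529). LOC_Os01g73250, of the ASR list, changed by -1.24 ± 0.47 in tolerant and by -4.26 ± 0.51 in sensitive roots, a difference of 3.02 (adjusted p = 0.0081). LOC_Os03g12500, listed for jasmonate synthesis, changed by 2.73 ± 0.68 in tolerant and by 7.14 ± 0.85 in sensitive roots, a difference of -4.41 (adjusted p = 0.0165). Its sensitive control libraries held 5 and 1 reads and its tolerant control libraries 18 and 11. Both changes and their difference therefore rest on few control reads. LOC_Os08g39850, of the same jasmonate list, changed by 3.01 ± 0.96 in tolerant and by 10.48 ± 1.67 in sensitive roots, a difference of -7.47 (adjusted p = 0.0259). At this locus both sensitive control libraries held 0 reads, so the sensitive change and the difference are fitted values that give no size of the change.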

How the results depend on the processing

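With a threshold of 0.01, a minimum of 2-fold, no filter on low means, a mean of at least 20, centring on loci tested or limma, called loci ranged from 7839 to 10568, within 1.5 times of the 10485 as deposited, and quintiles of the mean kept the order of the class shares (10.8% to 56.1%). Tested against a change of at most 2-fold, 3009 loci passed, 1393 up and 1616 down. Among loci with a mean above the median 2666 fell. Centred on loci with a mean of at least 1000, 3261 rose and 7962 fell. Leaving out one of the 8 libraries in limma gave 4956 to 11909 called loci, with 2485 to 5738 rises and 2249 to 6180 falls. Loci called both as deposited and in one of these settings kept their direction. The settings on threshold, size of change, filter and mean reuse the deposited changes, so their directions could not differ. Limma used reads solved from the same deposited values. Of 254 called loci that are in a list or among the largest changes, 134 were called by limma with all libraries and without each one. The causes were not tested. No paired analysis was possible because the recovered libraries carry no replicate number. The edgeR test with TMM scaling was not run. Means under 10 limit calls to log2 changes of at least 2.50.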

Other observations

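Libraries of a group differed along the direction of the cold response. Of 3161 loci with a mean of at least 100 that rose at least 2-fold in sensitive roots, a contrast that uses other libraries, cold library A of the tolerant line lay above cold library B at 81.1%, and control library A above control library B at 66.5%. Of 2855 loci that fell at least 2-fold there, the shares were 25.5% and 40.7%. Over all 15022 loci with such a mean they were 49.4% and 48.4%. These shares are a description, loci are not independent replicates, and the cause was not tested.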
